A study of Mus musculus with 10 samples.

Results

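Toll-like receptors are the membrane receptors with which macrophages sense microbial molecules, and 10 genes of this system were followed in macrophages of Mac-GsαKO and CTR mice. They are Tlr1, Tlr2, Tlr4 and Tlr6, whose receptors act at the cell surface, Tlr3, Tlr7, Tlr8 and Tlr9, whose receptors act in endosomes, the co-receptor gene Cd14 and the adaptor gene Myd88. They were taken by name and are 10 of the 53465 genes in the count table. All 10 were found by symbol, and all 10 passed the filter on low counts that left 13203 genes to test.

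The study asked about Gsα in foam cells, the lipid-laden macrophages of atherosclerosis, and sequenced RNA of macrophages by genotype. The Mac-GsαKO group held 5 libraries of macrophages in which, per the name, Gsα is lost, and the CTR group held 5 control libraries. Both groups were peritoneal macrophages from mice of 6 to 8 weeks, cultured in DMEM with fetal bovine serum and antibiotics without any added stimulus. The sources used here do not give the Cre driver behind the deletion, the alleles of the CTR mice or whether each library came from its own mouse, so p-values measure only the spread between these libraries.

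Each Toll-like receptor pairs a leucine-rich ectodomain, which binds a microbial ligand, with a cytoplasmic TIR domain, which recruits adaptors. TLR2 recognises bacterial lipopeptides as a heterodimer with TLR1 or TLR6, TLR4 recognises lipopolysaccharide with MD-2 and CD14, and the endosomal receptors recognise nucleic acids. MYD88 is the adaptor of all these receptors except TLR3, which signals through TRIF, and it leads through IRAK kinases and TRAF6 to NF-κB. Gsα, which Gnas encodes, couples hormone and prostaglandin receptors to cyclic AMP, a second messenger known to dampen cytokine output after Toll-like receptor ligation in macrophages.

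Total counts lay between 16877249 and 19235777 in the Mac-GsαKO libraries and between 15664243 and 18028974 in the CTR libraries. Counts are given as CPM, scaled to a common library total by TMM, and 3 counts, the limit that a count of 0 allows for counting error only, came to at most 0.175 CPM in Mac-GsαKO and 0.203 CPM in CTR. Gnas, the targeted gene, averaged 40.2 ± 2.62 CPM in Mac-GsαKO and 435 ± 62.4 CPM in CTR (SD, n = 5 each), and its log2 fold change was -3.43 with an adjusted p of 9.16e-09 by edgeR's quasi-likelihood test. Lyz2, a lysozyme gene of macrophages, averaged 9240 ± 517 CPM in Mac-GsαKO and 26528 ± 3802 CPM in CTR. On the first principal component all Mac-GsαKO libraries lay below 0, CTR 1 to CTR 3 at 6.85 to 18.5, and CTR 4 and CTR 5 further out at 34.7. On the second component CTR 4 stood alone at 46.7, while CTR 5 lay near CTR 1 to CTR 3 at -9.46. The fold changes of the 10 genes are given again without CTR 4 and CTR 5. The macrophage markers Adgre1, Csf1r, Cd68, Itgam, Mertk, Fcgr1 and Lyz2 were all well detected, and of these Csf1r (log2 fold change 0.46) and Itgam (0.79) were called higher in Mac-GsαKO and Lyz2 lower. The summed markers of T and NK cells were at most 2.04 CPM in Mac-GsαKO and 1.89 CPM in CTR, and those of dendritic cells at most 2.76 CPM in Mac-GsαKO and 3.05 CPM in CTR. Monocyte markers summed to 91.0 to 135 CPM in Mac-GsαKO and 79.2 to 125 CPM in CTR. Most of that sum was Chil3, with means of 97.8 CPM in Mac-GsαKO and 89.9 CPM in CTR. Ly6c2 (log2 fold change -0.57), Ccr2 (0.44) and Plac8 (0.36) were low, and no monocyte marker was called. Mast cell markers summed to 1.39 to 17.4 CPM in Mac-GsαKO and 3.11 to 27.3 CPM in CTR. Markers of mesothelial cells and fibroblasts summed to 36.0 to 49.3 CPM in Mac-GsαKO, against 101 CPM in CTR 5 and 19.1 to 48.6 CPM in the other CTR libraries.

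Of the 10 genes, Tlr1 passed the test as higher in Mac-GsαKO and Tlr2 as lower, against 3.94% of all genes tested that were called in either direction (1.83% higher and 2.11% lower). Their median log2 fold change was 0.01, beside -0.01 over all genes tested. In CPM, all Mac-GsαKO libraries lay above all CTR libraries for Tlr9 and below them for Tlr2, and such a separation held for 7.80% of all genes tested (3.25% higher and 4.55% lower). With CTR 4 and CTR 5 left out, Tlr4 and Tlr9 were called higher and Tlr2 and Tlr8 lower, where 8.76% of the 13534 genes then tested were called (5.13% higher and 3.63% lower). In these fits of edgeR's quasi-likelihood test Tlr2 was called both times, Tlr1 with all 10 libraries, and Tlr4, Tlr8 and Tlr9 without CTR 4 and CTR 5.

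**Figure D1:**
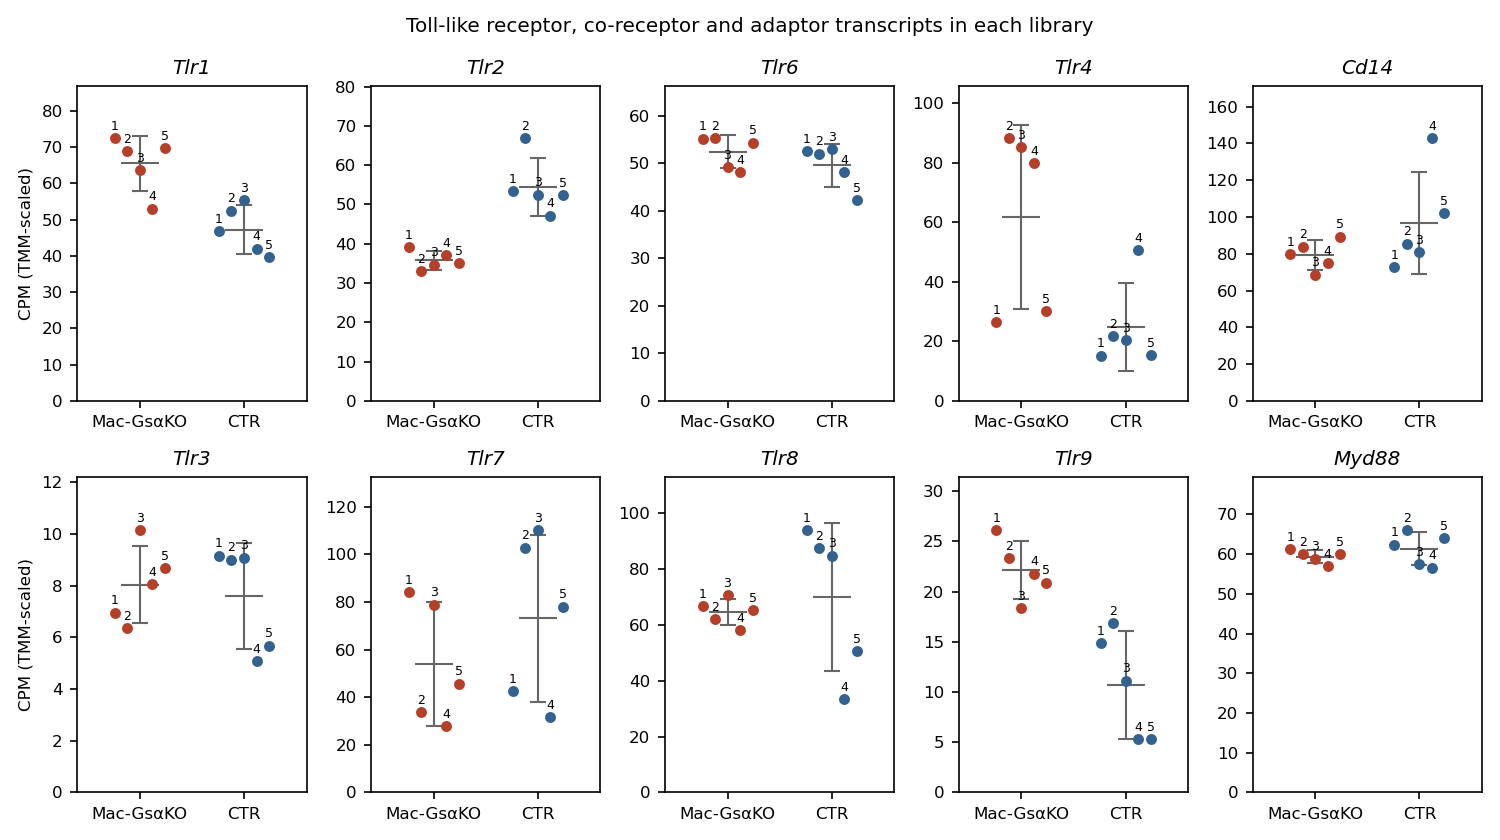
CPM of each gene in each of the 10 libraries, with Mac-GsαKO at the left and CTR at the right of every panel, the replicate number above each point, and bars for the mean ± SD (n = 5 each). The genotypes do not overlap for Tlr2 and Tlr9, Tlr4 forms 2 levels within Mac-GsαKO, and CTR 4 and CTR 5 are the lowest CTR libraries for Tlr3, Tlr9 and Tlr8.

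Tlr2 (ENSMUSG00000027995), the shared chain of both lipopeptide receptors, fell in Mac-GsαKO macrophages. Its CPM were 39.1, 33.0, 34.6, 37.1 and 35.0 in Mac-GsαKO 1 to 5, against 53.4, 66.8, 52.5, 47.2 and 52.4 in CTR 1 to 5. The Mac-GsαKO libraries lay close together and all below the lowest CTR library, which was CTR 4. The means were 35.8 ± 2.36 CPM in Mac-GsαKO and 54.5 ± 7.31 CPM in CTR (SD, n = 5 each). On the log2 scale the fold change was -0.61 (SE 0.10, 95% interval -0.83 to -0.39, adjusted p = 0.0132), or 1.52-fold lower. Without CTR 4 and CTR 5 the log2 fold change of Tlr2 was -0.68 (adjusted p = 0.00519), and without Mac-GsαKO 2 it was -0.58 with an adjusted p just past the threshold (0.050, over the 21 other settings 8.73e-06 to 0.0602). Neutrophils also express Tlr2, and the summed markers of that cell type ranged from 12.4 to 25.3 CPM in Mac-GsαKO and from 19.0 to 27.8 CPM in CTR, with S100a8 called lower (log2 fold change -0.56, adjusted p = 0.0443), Camp at no more than 3 counts and Ly6g at 0 in every library. Most of the summed CPM came from S100a8 and Retnlg, and Retnlg was not called (log2 fold change -0.13, 95% interval -1.44 to 1.18). S100a9 and Cxcr2 were too low to be tested. In Mac-GsαKO the mean CPM of S100a9 was lower than in CTR and that of Cxcr2 was higher. The lower S100a8 was thus not shared by all neutrophil markers. The part of neutrophils in the Tlr2 values was not tested.

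The promoter of Tlr2 is shown because this gene had the lowest adjusted p of the 10 and because cyclic AMP acts on genes through CREB, whose half-site can be looked for. The window is the 250 bases before the RefSeq start (GRCm38.p6, chr3:83841609-83841858, minus strand), and capitals mark matches to the NF-κB motif GGGNNNNNCC on either strand.
Tlr2: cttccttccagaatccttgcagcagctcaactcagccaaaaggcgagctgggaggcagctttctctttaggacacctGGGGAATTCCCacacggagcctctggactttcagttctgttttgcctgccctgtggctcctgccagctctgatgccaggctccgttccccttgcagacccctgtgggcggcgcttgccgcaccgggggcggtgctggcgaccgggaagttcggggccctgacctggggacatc
It held 2 overlapping matches, GGGGAATTCC and GGGAATTCCC, which start 173 and 172 bases before the start site. This motif stood in 45.8% of the 32851 promoter windows of the same length, so its presence is common. The CREB half-site TGACG, found in 17.8% of windows on either strand, had no match here.

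Tlr1 (ENSMUSG00000044827), whose receptor joins TLR2 to bind triacylated lipopeptides, rose in Mac-GsαKO by a small margin. Mac-GsαKO 1 to 5 had 72.4, 68.8, 63.6, 53.1 and 69.7 CPM of Tlr1, against 46.8, 52.5, 55.3, 42.0 and 39.6 CPM in CTR 1 to 5. Mac-GsαKO 4 lay below CTR 3, and the other Mac-GsαKO libraries lay above all CTR libraries. Mean levels were 65.5 ± 7.66 CPM in Mac-GsαKO and 47.2 ± 6.70 CPM in CTR, and the log2 fold change was 0.47 (SE 0.12, 95% interval 0.22 to 0.73, adjusted p = 0.0462), or 1.39-fold higher. The call was lost with each of the 10 libraries left out in turn, with log2 fold changes of 0.42 to 0.54 and adjusted p of 0.0521 to 0.124. Without CTR 4 and CTR 5 it was 0.35 (adjusted p = 0.0728), and over the 21 other settings the adjusted p ran from 0.00528 to 0.124.

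Tlr6 (ENSMUSG00000051498), the partner of TLR2 for diacylated lipopeptides, did not pass the test. It had 55.1, 55.2, 49.1, 48.2 and 54.3 CPM in Mac-GsαKO 1 to 5, against 52.5, 52.0, 53.0, 48.0 and 42.3 CPM in CTR 1 to 5. The ranges of the genotypes overlapped, and the log2 fold change of 0.08 had a 95% interval of -0.11 to 0.27 (adjusted p = 0.637). Without CTR 4 and CTR 5 it was -0.0017 (SE 0.07, adjusted p = 0.991).

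Tlr1 and Tlr6 are neighbours on chromosome 5 and near copies of each other in part, so their counts may depend on how shared reads were assigned. Between the GENCODE M21 transcripts of the 10 genes, only these 2 shared any run of 50 bases, with 15.3% of the runs of Tlr1 and 12.5% of those of Tlr6. The longest identical stretch of their coding sequences was 229 bases, coding bases 1468 to 1696 of Tlr1 (of 2385) and 1507 to 1735 of Tlr6 (of 2418). It is printed below in capitals with 20 flanking bases on each side, because a read inside the capitals fits both genes.
Tlr1: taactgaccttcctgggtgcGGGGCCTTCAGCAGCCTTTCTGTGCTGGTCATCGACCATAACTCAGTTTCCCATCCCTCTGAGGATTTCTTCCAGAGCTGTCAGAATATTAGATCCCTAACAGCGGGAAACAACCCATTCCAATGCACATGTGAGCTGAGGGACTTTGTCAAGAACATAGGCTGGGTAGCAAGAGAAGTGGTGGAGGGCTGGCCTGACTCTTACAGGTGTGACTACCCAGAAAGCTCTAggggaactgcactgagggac
Tlr6: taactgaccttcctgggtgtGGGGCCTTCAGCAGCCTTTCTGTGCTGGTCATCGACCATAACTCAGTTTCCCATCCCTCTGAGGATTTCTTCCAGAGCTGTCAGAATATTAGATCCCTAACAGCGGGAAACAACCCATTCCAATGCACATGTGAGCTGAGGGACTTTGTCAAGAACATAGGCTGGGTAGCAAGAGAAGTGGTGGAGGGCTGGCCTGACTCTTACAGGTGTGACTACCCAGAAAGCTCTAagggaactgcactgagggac
How such reads were counted was not stated in the sources used here, so the levels of both genes are uncertain by the reads from these stretches. The ratio of Tlr1 to Tlr6 per length, from the deposited FPKM (fragments scaled to gene length and library size), was 0.879, 0.835, 0.867, 0.738 and 0.860 in Mac-GsαKO 1 to 5, against 0.596, 0.676, 0.699, 0.585 and 0.627 in CTR 1 to 5. These ratios, chosen after the values were seen and given with no test, did not overlap between the genotypes.

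A window upstream of Tlr1 was read for the same motifs. The table held 2 start sites for it, and the first is shown (GRCm38.p6, chr5:64933559-64933808, minus strand), with the PU.1 motif GAGGAAG in capitals, since PU.1 is a lineage factor of macrophages.
Tlr1: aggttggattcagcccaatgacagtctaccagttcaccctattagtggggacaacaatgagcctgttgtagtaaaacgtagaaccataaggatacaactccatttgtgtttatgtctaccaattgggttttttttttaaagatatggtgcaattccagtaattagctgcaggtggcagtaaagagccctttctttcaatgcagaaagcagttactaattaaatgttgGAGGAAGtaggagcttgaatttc
That motif starts 23 bases before the start site and was present in 10.6% of all windows on either strand. The second Tlr1 window had no match to it. No TGACG and no GGGNNNNNCC was found in either Tlr1 window.

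Tlr4 (ENSMUSG00000039005), the lipopolysaccharide receptor, varied widely within both genotypes. Mac-GsαKO 1 to 5 held 26.4, 88.2, 85.2, 79.8 and 30.1 CPM, against 15.3, 21.8, 20.5, 50.6 and 15.4 CPM in CTR 1 to 5. Mac-GsαKO 2, 3 and 4 were near 3 times as high as Mac-GsαKO 1 and 5, and CTR 4 was the only CTR library above any Mac-GsαKO library. Averages were 61.9 ± 30.9 CPM in Mac-GsαKO and 24.7 ± 14.8 CPM in CTR. The log2 fold change was 1.33 (SE 0.41, 95% interval 0.43 to 2.23), with an adjusted p of 0.0894 that did not pass the threshold. Without CTR 4 it was 1.77 and was called (adjusted p = 0.0198), and without CTR 4 and CTR 5 it was 1.70 (adjusted p = 0.0375), while over all 21 other settings the adjusted p ran from 0.0198 to 0.208. On the log2 scale Tlr4 had an SD of 0.87 within Mac-GsαKO and 0.70 within CTR, above those of 99.5% and 97.8% of the 8914 genes compared, whose median SDs were 0.14 and 0.22.

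Cd14 (ENSMUSG00000051439), which hands lipopolysaccharide to TLR4 and MD-2, had the highest level per length of the 10 genes in both genotypes. Its CPM were 79.7, 83.8, 68.7, 74.8 and 89.3 in Mac-GsαKO 1 to 5, against 72.7, 85.5, 80.7, 143 and 102 in CTR 1 to 5. CTR 4 and CTR 5 lay above every Mac-GsαKO library and the other CTR libraries lay among them. The log2 fold change of -0.29 had a 95% interval of -0.64 to 0.07 (adjusted p = 0.333), and without CTR 4 and CTR 5 it was -0.01 (SE 0.09).

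Among the endosomal receptors, Tlr9 (ENSMUSG00000045322), the sensor of unmethylated CpG DNA, was higher in every Mac-GsαKO library than in any CTR library. It had 26.1, 23.4, 18.4, 21.8 and 20.9 CPM in Mac-GsαKO 1 to 5, against 14.9, 16.9, 11.1, 5.27 and 5.30 CPM in CTR 1 to 5. CTR 4 and CTR 5 were the lowest, at less than the level of any other library. With 22.1 ± 2.88 CPM in Mac-GsαKO and 10.7 ± 5.35 CPM in CTR, the log2 fold change was 1.04 (SE 0.29, 95% interval 0.41 to 1.68), yet the adjusted p of 0.0668 missed the threshold. Tlr9 was called without CTR 2 (1.27, adjusted p = 0.0409), without CTR 4 and CTR 5 (0.63, adjusted p = 0.0311), by the DESeq2 Wald test (1.05, adjusted p = 0.00858) and by limma voom with sample weights (0.85, adjusted p = 0.0168), and over the 21 other settings its adjusted p ran from 0.00858 to 0.148. B cells also express Tlr9, and the summed CPM of 6 B cell markers ranged from 4.52 to 8.81 in Mac-GsαKO and from 1.68 to 5.53 in CTR, with neither of the tested markers called. Of these, Cd79a averaged 1.33 ± 0.437 CPM in Mac-GsαKO and 0.588 ± 0.334 CPM in CTR, with a log2 fold change of 1.17 (95% interval 0.33 to 2.01, adjusted p = 0.105). Their part in the Tlr9 values was not tested, and in bulk RNA fewer cells of a type and less RNA per cell cannot be told apart.

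The window upstream of Tlr9 is shown beside those of Tlr1 and Tlr2 because all its Mac-GsαKO libraries lay above CTR (GRCm38.p6, chr9:106222348-106222597, plus strand), again with GAGGAAG in capitals.
Tlr9: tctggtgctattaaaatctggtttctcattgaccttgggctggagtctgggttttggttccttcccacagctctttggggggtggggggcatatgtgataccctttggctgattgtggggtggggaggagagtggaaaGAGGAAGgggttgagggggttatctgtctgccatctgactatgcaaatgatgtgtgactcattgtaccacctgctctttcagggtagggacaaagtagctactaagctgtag
The PU.1 motif starts 112 bases before the start site, and neither TGACG nor GGGNNNNNCC had a match. Windows were at hand for 7 of the 10 genes, and TGACG stood only in the second window of Tlr6, 73 bases before that start. The bases just after either Tlr6 start were found in no protein-coding GENCODE M21 transcript of Tlr6, unlike those of the other windows. The start sites of Tlr6 are therefore less sure. The full cyclic AMP response element TGACGTCA, present in 1.55% of all windows, was in no window of these 7 genes. GAGGAAG had no match in the windows of Tlr2, Tlr3, Tlr6, Tlr8 and Myd88.

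Tlr8 (ENSMUSG00000040522), a sensor of single-stranded RNA, gave a result that turned on CTR 4 and CTR 5. Its values were 66.7, 61.9, 70.5, 58.2 and 65.2 CPM in Mac-GsαKO 1 to 5, against 93.9, 87.5, 84.7, 33.4 and 50.5 CPM in CTR 1 to 5. CTR 1 to CTR 3 lay above all Mac-GsαKO libraries, and CTR 4 and CTR 5 lay below all of them. Over all libraries the log2 fold change was -0.12 (95% interval -0.62 to 0.39, adjusted p = 0.795). Without CTR 4 and CTR 5 it was -0.46 (SE 0.08) and Tlr8 was called lower (adjusted p = 0.00921), without CTR 1 it was 0.01, and over the 21 other settings the adjusted p ran from 0.00921 to 0.987.

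Tlr7 (ENSMUSG00000044583), the other single-stranded RNA sensor and the neighbour of Tlr8 on the X chromosome, did not follow it. Mac-GsαKO 1 to 5 had 84.1, 33.7, 78.9, 27.7 and 45.7 CPM, against 42.6, 103, 110, 31.7 and 78.0 CPM in CTR 1 to 5. Both genotypes held libraries at a low and at a high level, such as Mac-GsαKO 4 and 1 and CTR 4 and 3, and the ranges overlapped. The log2 fold change of -0.44 had a wide 95% interval of -1.26 to 0.39 (adjusted p = 0.540). It was -0.66 (SE 0.40) without CTR 4 and CTR 5, and with 1 library left out it ran from -0.65 without Mac-GsαKO 1 to -0.24 without CTR 3, with -0.27 without Mac-GsαKO 4 and -0.28 without CTR 2. Within Mac-GsαKO the log2 SD of Tlr7 was 0.72, above that of 99.1% of the genes compared, and within CTR it was 0.79, above that of 98.6%. The mean ± SD ratio of Tlr7 to Tlr8 per length was 0.557 ± 0.238 in Mac-GsαKO and 0.736 ± 0.280 in CTR, with overlap.

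Tlr3 (ENSMUSG00000031639), the double-stranded RNA sensor, was the lowest of the 10 genes, with 120 to 174 counts in Mac-GsαKO libraries and 75 to 164 counts in CTR libraries. In CPM it reached 6.95, 6.35, 10.1, 8.05 and 8.67 in Mac-GsαKO 1 to 5, against 9.16, 9.0, 9.09, 5.07 and 5.67 in CTR 1 to 5. CTR 4 and CTR 5 were the lowest libraries and CTR 1 to CTR 3 lay within the Mac-GsαKO range. Its log2 fold change of 0.08 (95% interval -0.36 to 0.51, adjusted p = 0.851) was -0.18 without CTR 4 and CTR 5. An antisense gene, Gm45542, shares 381 exon bases with Tlr3 and had at most 3 counts in any library.

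Myd88 (ENSMUSG00000032508), the common adaptor, was the steadiest of the 10 genes. It had 61.2, 59.9, 58.9, 56.9 and 59.9 CPM in Mac-GsαKO 1 to 5, against 62.3, 66.1, 57.4, 56.6 and 64.1 CPM in CTR 1 to 5. All libraries lay in a narrow band and the genotypes overlapped. The log2 fold change of -0.05 had a 95% interval of -0.21 to 0.12 (adjusted p = 0.753), and without CTR 4 and CTR 5 it was -0.06 (SE 0.07). The log2 SD of 0.04 of Myd88 within Mac-GsαKO was above that of 1.62% of the genes compared. The exons of Acaa1a overlap those of Myd88 by 290 bases on the opposite strand, and Acaa1a had 87.6 ± 8.03 CPM in Mac-GsαKO and 75.7 ± 10.0 CPM in CTR. The strand setting of the counts is not given in the sources used here, so reads from the overlap cannot be told apart.

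**Figure D2:**
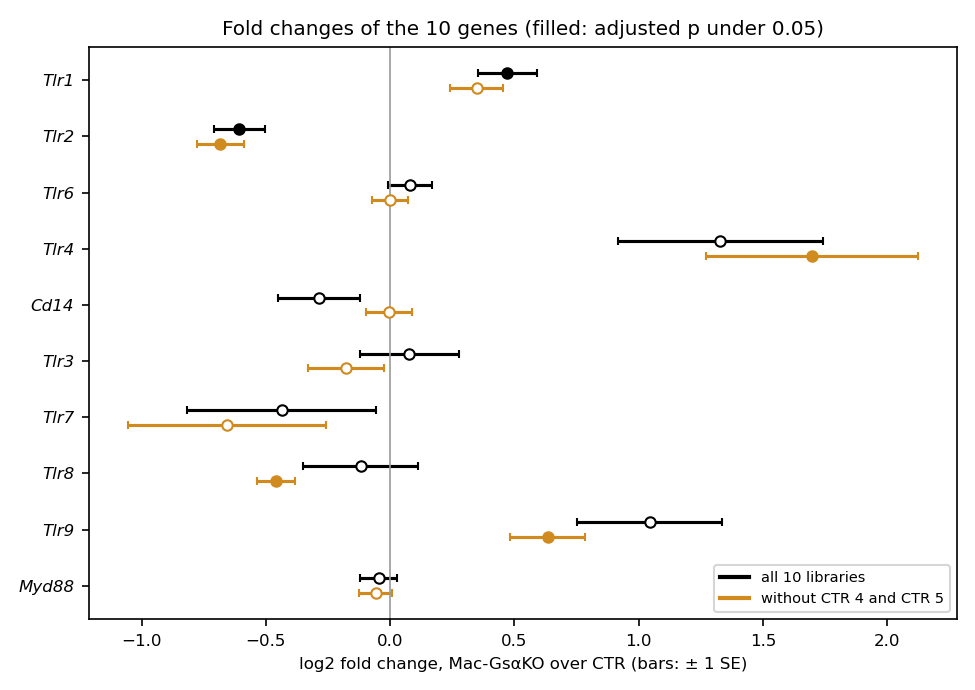
Log2 fold change of each gene, Mac-GsαKO over CTR, with ± 1 SE, from all 10 libraries (black) and without CTR 4 and CTR 5 (orange), where filled points have an adjusted p under 0.05. Tlr2 is filled in both fits, Tlr1 with all libraries, and Tlr4, Tlr8 and Tlr9 without CTR 4 and CTR 5.

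**Figure D3:**
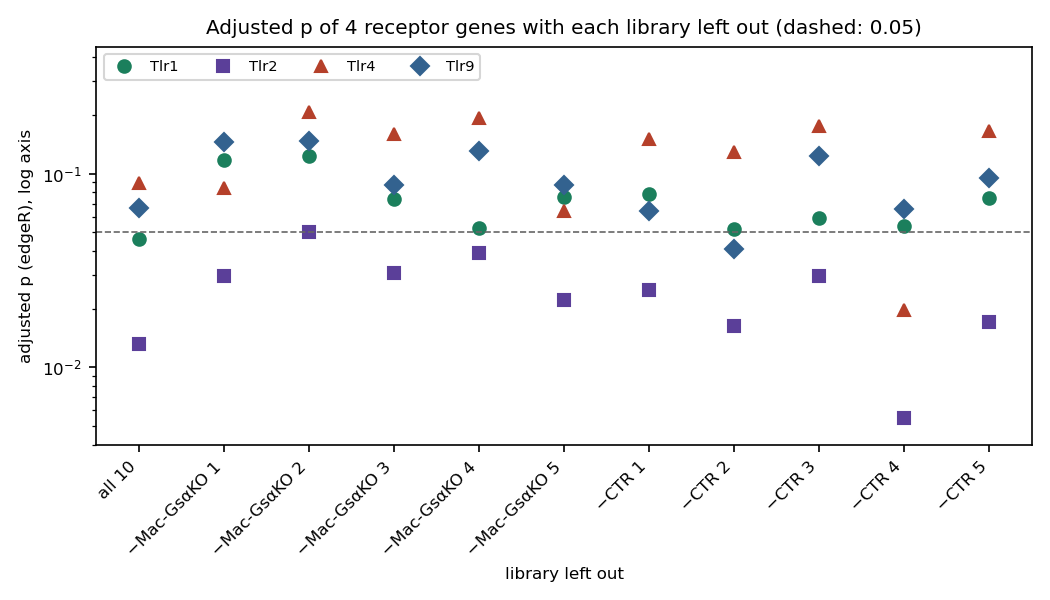
Adjusted p from edgeR's quasi-likelihood test (log axis) of Tlr1, Tlr2, Tlr4 and Tlr9 with all 10 libraries and with each library left out, the dashed line marking 0.05. Tlr1 is above the line in all 10 leave-one-out fits, with a lowest adjusted p of 0.0521, while Tlr2 is below it in 9 and Tlr4 and Tlr9 in 1 each.

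Per length, Cd14 stood above the other genes and Tlr3 below them in both genotypes, while most genes in between could not be ordered. These levels rest on the gene lengths that the deposited FPKM imply, such as 6158 bases for Tlr1 and 11508 for Tlr7. The longest GENCODE M21 transcripts are shorter, with 2976 runs of 50 bases for Tlr1 and 3848 for Tlr7. Another choice of length would thus move genes in the order. In Mac-GsαKO the mean FPKM were 51.0 for Cd14, 13 for Myd88, 12.9 for Tlr6, 12.0 for Tlr2, 10.8 for Tlr1, 9.27 for Tlr4, 8.36 for Tlr8, 6.43 for Tlr9, 4.76 for Tlr7 and 0.687 for Tlr3. Only Cd14 and Myd88, and Tlr7 and Tlr3, were neighbours in this order whose ranges over the 5 libraries did not overlap. In CTR the order was Cd14 with 60.2 FPKM, Tlr2 with 17.9, Myd88 with 13.1, Tlr6 with 11.9, Tlr8 with 8.91, Tlr1 with 7.58, Tlr7 with 6.34, Tlr4 with 3.53, Tlr9 with 3.05 and Tlr3 with 0.636. There, only Cd14 and Tlr2, and Tlr9 and Tlr3, did not overlap as neighbours. The mean of Tlr2 thus stood below those of Myd88 and Tlr6 in Mac-GsαKO, within overlapping ranges, and above those of Myd88, Tlr6 and Tlr1 in CTR. The 8 receptor genes together came to 65.1 ± 3.97 FPKM in Mac-GsαKO and 59.8 ± 10.7 FPKM in CTR, of which the endosomal receptors made up 31.0 ± 3.81% and 30.7 ± 7.73%, and the genotypes overlapped in both measures.

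**Figure D4:**
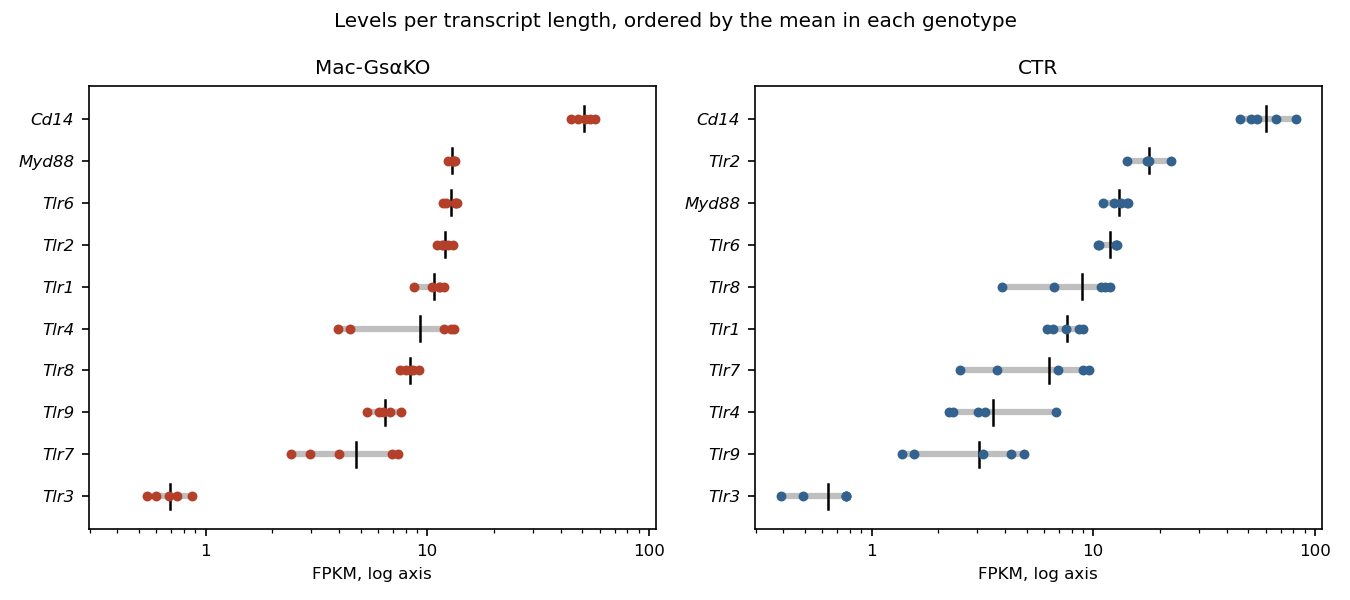
Deposited FPKM (log axis) of the 10 genes in each library, in Mac-GsαKO at the left and CTR at the right, ordered by the mean (black tick), with grey bars for the range over 5 libraries. Cd14 is highest (mean 51.0 in Mac-GsαKO and 60.2 in CTR) and Tlr3 lowest (0.687 and 0.636), and the ranges of most neighbours in between overlap.

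Within a library, the FPKM ratios of the partner genes of Tlr2 to Tlr2 differed between the genotypes. These ratios were chosen after the values were seen and are therefore given with no test. They restate the values of the single genes given above and are no further result. How often other pairs of genes lie apart in this way was not counted. The ratio of Tlr1 to Tlr2 FPKM was 0.906, 1.02, 0.898, 0.700 and 0.976 in Mac-GsαKO 1 to 5, against 0.429, 0.385, 0.516, 0.435 and 0.370 in CTR 1 to 5. In FPKM, Tlr1 was thus closer to Tlr2 in every Mac-GsαKO library than in any CTR library, and the genotypes did not overlap. The size of such a ratio depends on the gene lengths behind the FPKM (6158 bases for Tlr1 and 3014 for Tlr2), which are the same in every library. For Tlr6 to Tlr2 the ratio averaged 1.07 ± 0.105 in Mac-GsαKO and 0.672 ± 0.0855 in CTR, also without overlap. The ratio of Tlr9 to Tlr8 averaged 0.775 ± 0.122 in Mac-GsαKO and 0.335 ± 0.0742 in CTR. It was 0.585 in the lowest Mac-GsαKO library and 0.434 in the highest CTR library, and CTR 5 (0.236) lay below the other CTR libraries while CTR 4 (0.355) lay among them. Tlr4 to Cd14 gave 0.187 ± 0.102 in Mac-GsαKO and 0.0569 ± 0.0174 in CTR, with overlap through CTR 4.

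**Figure D5:**
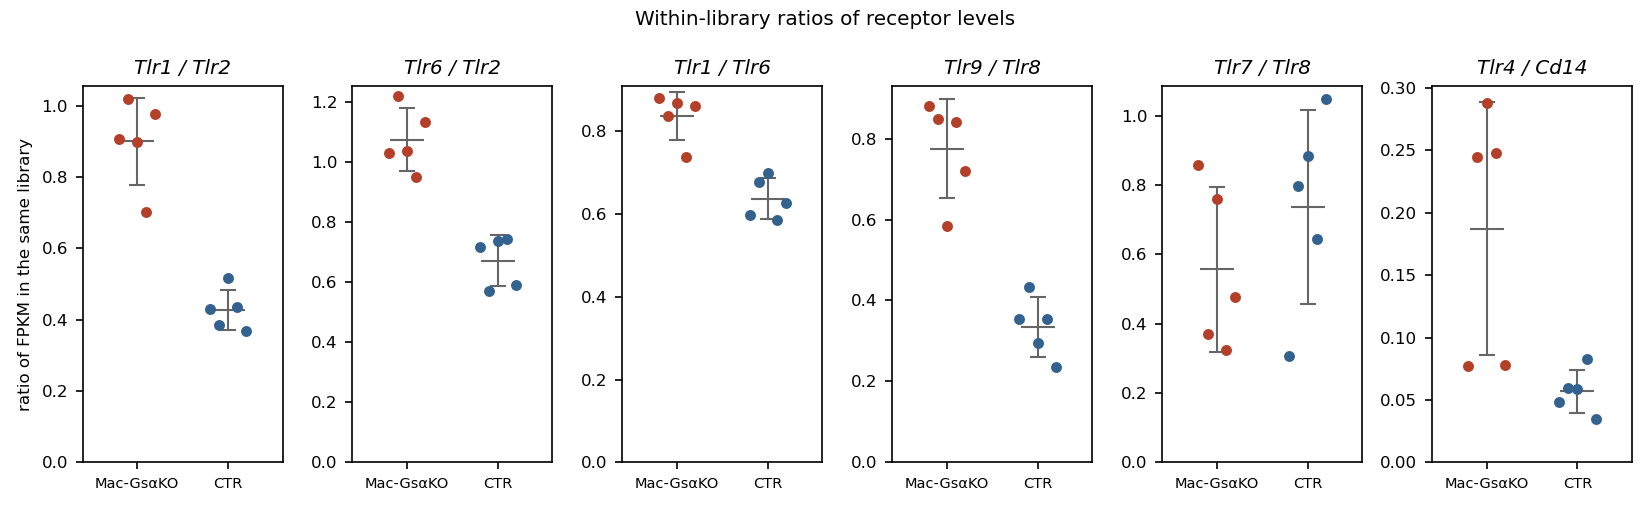
Ratios of deposited FPKM within each library for 6 pairs of the genes, with Mac-GsαKO at the left and CTR at the right of each panel and bars for the mean ± SD (n = 5 each). The genotypes lie apart for Tlr1 to Tlr2 (means 0.900 and 0.427), Tlr6 to Tlr2, Tlr1 to Tlr6 and Tlr9 to Tlr8, and overlap for Tlr7 to Tlr8 and Tlr4 to Cd14.

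The genes whose centred log2 CPM over the 10 libraries came closest to that of Tlr2 were Lpcat2, which makes phosphatidylcholine and platelet-activating factor, Tada1, a subunit of the SAGA coactivator, and Gng11, a G protein gamma subunit. Their root mean square differences from Tlr2 were 0.11, 0.12 and 0.14, among 8252 genes searched, where Tlr2 itself varied by 0.33 around its mean. All 3 were called lower in Mac-GsαKO, with log2 fold changes of -0.56, -0.62 and -0.68. A gene picked for its likeness over these same libraries shares the direction of its match by that choice. Closest to Tlr1 were Tecpr1 (0.11), which encodes a protein of autophagosome to lysosome fusion, Smad3 (0.11), a mediator of TGF-β signals, and Vav2 (0.12), a guanine nucleotide exchange factor. Their log2 fold changes were 0.38 (adjusted p = 0.0502, not called), 0.48 and 0.43. Tlr9, the gene with the next lowest p, was closest to Tnfrsf14 (0.29), Utrn (0.34) and Rere (0.34), of which none was called and all were lowest in CTR 4 and CTR 5.

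Of 79 further genes of the Toll-like receptor system, in 7 lists, 70 were tested, and edgeR called 0 higher and 1 lower. At an unadjusted p under 0.05, 8 of the 70 were higher and 6 lower, where 10.0% of all genes tested were higher and 11.9% lower. DESeq2 called 5 higher and 3 lower, where it called 4.62% of all genes higher and 5.34% lower, so by either measure the 70 genes lay near the background. The median log2 fold change of the 70 was 0.07, beside -0.01 over all genes tested.

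Other mouse Toll-like receptor genes showed no call. Tlr13, a sensor of bacterial ribosomal RNA, was more abundant than any of the 8 receptors above, with 113 FPKM in Mac-GsαKO and 115 FPKM in CTR, and its log2 fold change was -0.07 (95% interval -0.31 to 0.18). Tlr5, the flagellin receptor, averaged 0.564 CPM in Mac-GsαKO and 0.792 CPM in CTR (log2 fold change -0.48, 95% interval -1.31 to 0.35). Tlr11 (0.192 CPM in Mac-GsαKO and 0.244 CPM in CTR) and Tlr12 (0.871 and 0.569 CPM), which sense profilin, were too low to be tested.

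Of the 4 co-receptor genes, none was called. Ly96, which encodes MD-2, averaged 14.4 ± 2.09 CPM in Mac-GsαKO and 15.3 ± 1.48 CPM in CTR, a log2 fold change of -0.08 (95% interval -0.35 to 0.18). Lbp, the lipopolysaccharide-binding protein gene, had 7.02 ± 0.525 CPM in Mac-GsαKO and 9.01 ± 1.3 CPM in CTR (log2 fold change -0.36, adjusted p = 0.126). Cd180, a TLR4-like receptor of B cells and macrophages, gave 0.22 (95% interval -0.01 to 0.45), and its partner Ly86 gave -0.03 (95% interval -0.24 to 0.18).

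The adaptors beside Myd88 gave no call, although all Mac-GsαKO libraries lay above all CTR libraries for 2 of the 4 tested, where 3.25% of all genes tested were so separated. Ticam2, which encodes the TLR4 adaptor TRAM, had 67.9, 60.9, 59.4, 73.1 and 57.9 CPM in Mac-GsαKO 1 to 5, against 55.3, 54.7, 45.6, 41.8 and 42.0 CPM in CTR 1 to 5. Its log2 fold change was 0.42 (SE 0.11, adjusted p = 0.0564), which missed the threshold. Pik3ap1, whose product BCAP links Toll-like receptors to PI3K, averaged 218 ± 13.5 CPM in Mac-GsαKO and 166 ± 29.5 CPM in CTR (0.39, adjusted p = 0.0848). Ticam1, which encodes TRIF, gave 0.12 (95% interval -0.06 to 0.30) and Tirap, the bridging adaptor of TLR2 and TLR4, gave -0.09 (95% interval -0.40 to 0.22). Sarm1 had at most 2 counts in any library and was not tested.

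None of 11 trafficking and processing genes tested was called. Hsp90b1, which encodes the chaperone gp96 that folds most Toll-like receptors, averaged 346 ± 77.0 CPM in Mac-GsαKO and 479 ± 68.9 CPM in CTR (-0.47, adjusted p = 0.0936). Unc93b1, the carrier of the endosomal receptors, had 680 ± 76.8 CPM in Mac-GsαKO and 570 ± 35.6 CPM in CTR (0.25, adjusted p = 0.129). The chaperone genes Cnpy3 and Cnpy4 gave log2 fold changes of 0.04 and -0.12, the cargo receptor Tmed7 gave 0.16, the adaptor complex gene Ap3b1 gave 0.09 and the endolysosomal transporter Slc15a4 gave 0.30, none called. The proteases that cleave endosomal receptors gave -0.04 for Lgmn, -0.16 for Ctsb, -0.44 for Ctsl and 0.11 for Ctss, also without a call. For Ctsb the Mac-GsαKO libraries (at most 24271 CPM) all lay just below the CTR libraries (at least 24404 CPM), 1 of the 11 genes, where 4.55% of all genes tested were separated in this direction. Tasl was not matched by symbol.

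Among 24 signalling genes and 10 negative regulators, all tested, 0 were called in either direction by edgeR, and at an unadjusted p under 0.05 the signalling genes had 2 higher and 1 lower and the regulators 1 higher, against the shares of 10.0% and 11.9% of all genes tested. DESeq2 called 1 higher in each of these lists, against its 4.62% of all genes. Of the 24 signalling genes, 1 had all Mac-GsαKO libraries above all CTR libraries, where 3.25% of all genes tested were so separated. It was Map3k8, which encodes the kinase TPL2, with at least 26.4 CPM in Mac-GsαKO and at most 25.7 CPM in CTR. The log2 fold change of Map3k8 was 0.26 (adjusted p = 0.119 by edgeR). Of 20 genes that macrophages induce on Toll-like receptor ligation, 15 were tested and 1 was called, while Il6, Il10, Il12b, Il23a and Ifnb1 were too low to test in these unstimulated cells. Il1a, which encodes the cytokine interleukin-1α, had 39.3, 42.3, 44.8, 45.1 and 52.1 CPM in Mac-GsαKO 1 to 5, against 58.7, 66.4, 69.3, 53.7 and 53.5 CPM in CTR 1 to 5. The genotypes lay apart, narrowly. Of the 15 genes tested, 1 was separated in this direction, where 4.55% of all genes tested were. Il1a fell by 0.43 on the log2 scale (SE 0.11, adjusted p = 0.0437 by edgeR). This call held in 10 of 21 other settings and in 3 of the 10 with 1 library left out, with adjusted p between 0.00390 and 0.124.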

How the data were processed

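Bulk RNA-seq of cultured peritoneal macrophages was analysed for 5 Mac-GsαKO and 5 CTR libraries. Per the labels, total RNA was extracted with a column kit and sequenced as Illumina libraries. CASAVA 1.8, HISAT2, SAMtools 1.3.1, edgeR and the build GRCm39 are named, without role, per the submitters' processing notes; no source used here gives the read counter, annotation release, strand setting or handling of reads that fit several genes. The authors deposited raw read counts per Ensembl gene, as whole numbers. The authors also deposited FPKM, which match the counts over gene length and library total to within a relative deviation of 0.000186 at 50 or more counts.

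Of 53465 genes, 53274 were matched to a symbol and 191 were not. No libraries had identical counts. The analysis ran in edgeR 4.0.16 under R 4.3.3: filterByExpr with defaults left 13203 genes with 99.9% of counts, libraries were scaled by TMM, and the quasi-likelihood test (two-sided, genotype as the only term) had its p-values adjusted over all these genes by Benjamini-Hochberg (called under 0.05). The script was tested on simulated counts. Totals of 15664243 to 19235777 counts limit the precision of low genes, and the biological coefficient of variation was 0.200. Intervals are 95%. FPKM gave levels between genes. Promoter windows came from a RefSeq table and transcripts from GENCODE M21 (GRCm38), another build than that of the counts, so the only coordinates given are those of the promoter windows, on GRCm38.p6.

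The 10 genes, the pathway and marker lists and the tests were chosen with earlier results of these data known. Text names the 10 genes whatever their result, Gnas and Lyz2, every gene of the lists of other receptors, co-receptors, adaptors and trafficking, any gene of the other lists that was called, and the 3 genes closest in pattern to each of the 3 genes with the lowest p. Closeness was the root mean square difference of centred log2 CPM (prior count 2) among genes with a mean log2 CPM of at least 3. Markers and other names were chosen after their values were seen. Alternatives were other scalings, filters, DESeq2 1.42.0, limma 3.58.1 voom with sample weights, a robust fit, a gene length trend (mgcv 1.9.3), the replicate number as a block, each library left out, and CTR 4 and CTR 5 left out together. The labels do not say that equal numbers pair libraries, and no pairing was used.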

Additional observations from a re-analysis of the deposited data

Results flagged for a closer look

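Tlr4 lay at 2 levels in the 5 Mac-GsαKO libraries, with 26.4 and 30.1 CPM in Mac-GsαKO 1 and 5 and 79.8 to 88.2 CPM in the others. In CTR 4 Tlr4 stood far from the other CTR libraries, at 50.6 CPM against 15.3, 21.8, 20.5 and 15.4 CPM in CTR 1, 2, 3 and 5. The gap from CTR 4 to the next library was larger than 0.71 of the whole CTR range, the 95% limit of Dixon's test for 5 libraries. Since the gap is taken beside 1 library at a time, the test cannot flag a pair such as Mac-GsαKO 1 and 5. Chance puts about 1 in 20 groups past that limit, and 64 groups were examined with 1 past it. Without CTR 4 the log2 fold change of Tlr4 was 1.77, with an adjusted p of 0.0198 by edgeR (0.0198 to 0.208 over the 21 other settings).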

How the results depend on the processing

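Cd14, Myd88 and Tlr7 kept their direction and did not pass the threshold under all 21 other settings. With the replicate number as a replicate block, Tlr1 gave 0.47 (adjusted p = 0.0828), Tlr2 gave -0.60 (adjusted p = 0.0602), 0 of the 10 genes were called in either direction, 0 pathway genes were called lower, and 59 genes were higher and 45 lower of all tested, against 241 higher and 279 lower without it. Residuals of libraries with equal numbers correlated across genes by -0.13, -0.09, -0.02, 0.06 and -0.03, so these numbers were not taken to pair the libraries. With CTR 4 and CTR 5 left out, log2 fold changes were 0.35 for Tlr1, 1.70 for Tlr4 and -0.0017 for Tlr6. They were -0.18 for Tlr3, -0.46 for Tlr8 and 0.63 for Tlr9. In that fit 2 of the 10 genes were called higher and 2 lower, and 694 genes were higher and 491 lower of all tested. There 1 pathway gene was called higher. Without these libraries 5 neighbours in the order of CTR levels did not overlap, against 2 with all libraries. Ranges over 3 CTR libraries can only be as wide as those over 5 or narrower, so these counts of neighbours are not alike. The DESeq2 Wald test gave 1.05 for Tlr9, called 2 of the 10 genes higher, 598 genes higher and 691 lower of all tested, and 5 pathway genes higher and 3 lower. Limma voom with sample weights gave 1.55 for Tlr4, 0.85 for Tlr9 and -0.15 for Tlr3, called 3 of the 10 genes higher, 1026 genes higher and 893 lower of all tested, and 7 pathway genes higher and 4 lower. Without a filter on low counts, Tlr1 gave 0.47 (adjusted p = 0.0822), 0 of the 10 genes were called higher, 122 genes were higher and 139 lower of all tested, and 0 pathway genes were lower. Library size alone called 312 genes higher and 213 lower of all tested and 0 pathway genes lower, and the gene length trend also called 0 pathway genes lower. The median log2 fold change of all genes moved to 0.03 with library size alone and to -0.03 with the gene length trend. With 1 library left out, ranges were 0.42 to 0.54 for Tlr1, -0.65 to -0.52 for Tlr2, 1.17 to 1.77 for Tlr4, -0.037 to 0.15 for Tlr3, -0.65 to -0.24 for Tlr7, -0.29 to 0.0092 for Tlr8 and 0.88 to 1.27 for Tlr9. Tlr3 was -0.02 without Mac-GsαKO 3, -0.037 without CTR 4 and -0.01 without CTR 5, and Tlr8 was 0.0092 without CTR 1. Over these fits 32 to 484 genes were higher and 30 to 384 lower, fewest without Mac-GsαKO 2 and most without CTR 4, 0 to 1 of the 10 genes were called in each direction, and 0 to 1 pathway genes were called higher and 0 to 2 lower. The order of levels was also taken from TMM-scaled CPM per length, which kept each gene's place in both genotypes. There Tlr2 and Myd88 were also neighbours without overlap in CTR. It used the same gene lengths as the FPKM, so it cannot show how the order depends on length. The causes of these shifts were not tested. Depth limits the low genes: of the 10, Tlr3 and Tlr9 had 75 and 78 counts in their lowest libraries, and Tlr5 had 5 to 17 counts in Mac-GsαKO and 6 to 21 in CTR.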

Other observations

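Tlr7 and Kbtbd4, which encodes a BTB and Kelch domain protein, had nearly the same pattern over the 10 libraries, a pair that was chosen after the values were seen. Kbtbd4 had 16.4, 7.84, 17.7, 6.47 and 7.47 CPM in Mac-GsαKO 1 to 5, against 9.33, 19.7, 20.7, 5.95 and 18.2 CPM in CTR 1 to 5. Its centred log2 CPM differed from that of Tlr7 by a root mean square of 0.17, where Tlr7 varied by 0.71 around its own mean. The next gene, Top2a, differed from Tlr7 by 0.46. High and low libraries of both genes were found in both genotypes.

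For Tlr4 the closest of 8252 genes was Itgam, the integrin chain CD11b, at a root mean square difference of 0.53, against 0.96 for Tlr4 around its own mean. Itgam had 534, 751, 721, 766 and 489 CPM in Mac-GsαKO 1 to 5, against 256, 453, 433, 478 and 265 CPM in CTR 1 to 5. As with Tlr4, Mac-GsαKO 1 and 5 were the lowest of their genotype, and CTR 1 and 5 the lowest of theirs. For Tlr8 the closest gene was Myo5a, an unconventional myosin, at 0.13, with 338 to 431 CPM in Mac-GsαKO, against 464 to 556 CPM in CTR 1 to CTR 3, 198 CPM in CTR 4 and 273 CPM in CTR 5.

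Among the response genes that were not called, Nos2, the inducible nitric oxide synthase gene, had 7.19, 4.0, 5.72, 19.1 and 6.03 CPM in Mac-GsαKO 1 to 5, against 3.91, 4.44, 1.64, 2.70 and 1.18 CPM in CTR 1 to 5. Its log2 fold change was 1.59 (SE 0.45, adjusted p = 0.0694), and Mac-GsαKO 4 was more than 2 times as high as any other library. Cxcl1, a neutrophil chemokine gene, averaged 1.6 ± 0.608 CPM in Mac-GsαKO and 3.81 ± 2.27 CPM in CTR (log2 fold change -1.24, SE 0.37, adjusted p = 0.0801). Both genes were named after their values were seen.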
